A study of Hernandia nymphaeifolia with 9 samples.

Results

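A group of 47 assembled genes in leaves of Hernandia nymphaeifolia was near its control level after 7 days of salt water and higher after 14 days. They were chosen from 315331 assembled genes by their CPM, the counts of a gene divided by the total of its library and multiplied by 1000000. A member had a control mean under 500 CPM, at least 5 CPM in its lowest 14 d library, a lowest 14 d library at least 1.7 times its highest control or 7 d library, and a 7 d mean within 1.5-fold of its control mean in either direction. The gene levels in all 9 libraries were thus used to choose the members, and these levels are given as a description with no test.

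Hernandia nymphaeifolia is a coastal tree that grows beside mangroves, and the study asked how the leaves of its seedlings respond to salinity. Leaf polyadenylated RNA was sequenced from 3 control seedlings in fresh water, 3 seedlings given 300 mM NaCl for 7 days and 3 given 300 mM NaCl for 14 days, with 1 library per seedling. All seedlings, controls included, were 2 years old and were flooded up to their branches for 3 h of each 12 h, so flooding was shared by all groups. The labels give no genotype and no sampling day for the controls, so time in the experiment and length of the salt treatment cannot be told apart.

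As background, salt water acts on a leaf in stages. Lower water potential at the roots acts quickly, whereas sodium and chloride build up in leaf tissue over days, and mature leaves respond through hormone signals, ion transport into vacuoles, compatible solutes and antioxidant enzymes. An assembled gene can carry several isoforms, which may be splice variants, alleles or close copies, and plants under stress are known to change the mix of splice variants as well as the output of genes.

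The identifiers are not paired with gene names in the files, so no pathway or function is given for a member, and the leaf identity of the libraries was not checked against marker genes. Total counts ran from 13166552 to 14201943 per library, and each member held between 412 and 25169 counts over the 9 libraries, with a median of 1502. The members are called by their rank from 1 to 47 in mean CPM at 14 d. CPM are not divided by transcript length, so the rank is a label and not an order of abundance between genes. In leaf tissue, a change in the share of a cell type and a change in RNA per cell cannot be told apart.

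Together the members held 0.0819 ± 0.00159% of all counts in control leaves (SD, n = 3), 0.0755 ± 0.00352% at 7 d (SD, n = 3) and 0.228 ± 0.0157% at 14 d (SD, n = 3). Each library at 14 d, with 0.224, 0.246 and 0.215% in replicates 1, 2 and 3, was above the 0.0724 to 0.0838% of the other 6 libraries. The mean of a member ran from 1.64 to 156 CPM in control leaves, with a median of 7.12, and from 5.57 to 331 CPM at 14 d, with a median of 21.8. The members thus spanned a wide range of CPM, and 36 of the 47 had a 14 d mean under 50 CPM.

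**Figure D1:**
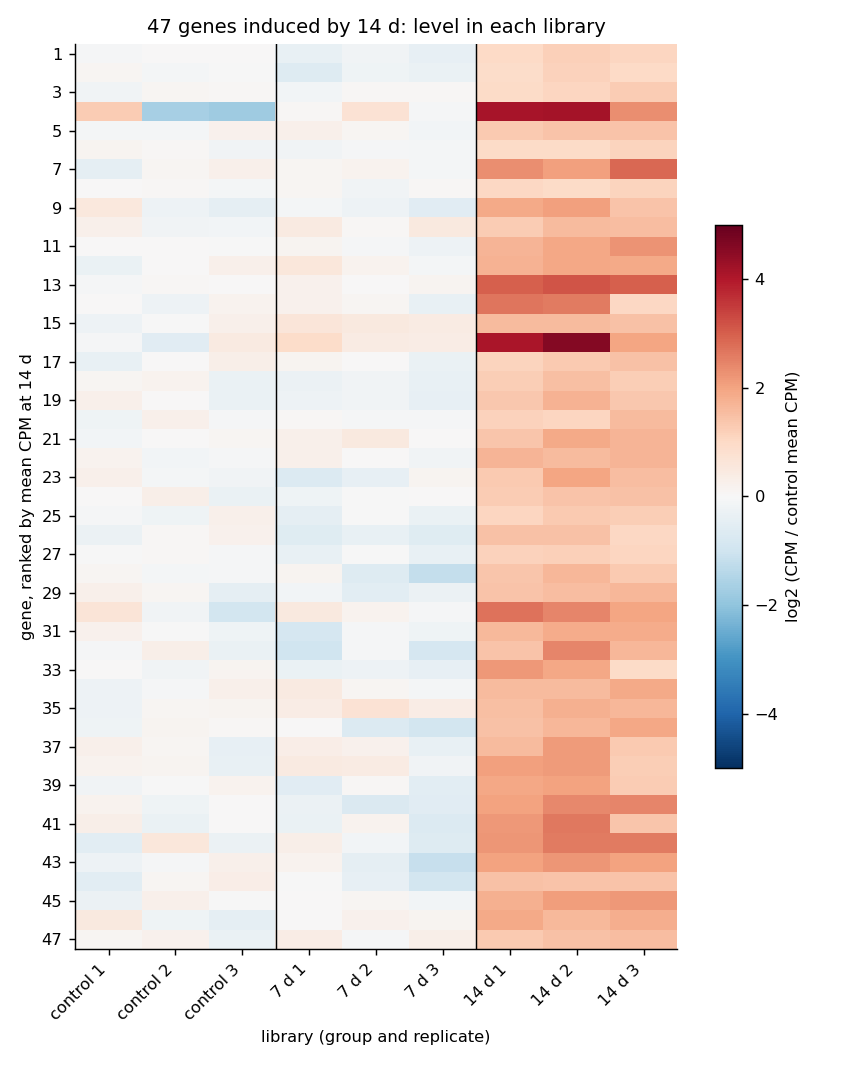
Level of each of the 47 genes in each of the 9 libraries, as log2 of CPM over the control mean of that gene, with genes ordered by mean CPM at 14 d. The 3 columns of the 14 d libraries are red in every row, and the genes ranked 4, 13 and 16 have the darkest rows.

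The size of the induction varied among members. Mean CPM at 14 d was 2.03 to 15.01 times the control mean, with a median of 3.20. It was under 3 times in 20 members, 3 to 5 times in 21 and over 5 times in 6. Against the 7 d mean the ratio was 2.05 to 11.03, with a median of 3.41. The rule fixed that these ratios exceed 1.7. In edgeR's quasi-likelihood fit across 62564 genes, 7.97% of all tested genes were called higher at 14 d than in control leaves and 6.89% higher at 14 d than at 7 d. All 47 members were tested and all 47 were called higher in both comparisons. This follows from how they were chosen. Both comparisons use the same 14 d libraries. The median fitted log2 change of the members at 14 d was 1.60 against control and 1.72 against 7 d, beside 0.01 and 0.01 over all tested genes.

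At 7 d the members lay on both sides of the control level. The 7 d mean was below the control mean in 29 members and above it in 18, with ratios of 0.671 to 1.499 and a median of 0.962. The fit called 25.2% of all tested genes at 7 d against control leaves, 13.9% lower and 11.3% higher. Of the members, the genes ranked 1 and 2 were called lower and the gene ranked 15 higher, and since the rule held the 7 d mean near control nothing is read from these counts. The other conditions of the rule were also met by genes with a larger change at 7 d. Without the condition on the 7 d mean the rule took 97 genes, the 47 members, 21 genes with a 7 d mean below the range and 29 with one above it.

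Several members lay close to a limit of the rule. The smallest gap between the lowest 14 d library and the highest other library was 1.7008 among members and the largest just outside was 1.69804. The lowest 14 d library of a member was 5.06 CPM, beside 4.96 CPM in the nearest gene outside. The ratio of the 7 d to the control mean was 0.671 in the lowest member and 0.664 in the nearest gene below, and 1.4994 in the highest member and 1.56 in the nearest gene above. The limit of 500 CPM left out no gene, and the highest control mean was 156 CPM.

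TRINITY_DN2109_c0_g2, ranked 1, had the highest CPM at 14 d. Its level was 151, 159.8 and 157 CPM in control replicates 1, 2 and 3, then 119.7, 139 and 118 CPM at 7 d and 312, 351 and 328 CPM at 14 d. All 3 libraries at 7 d were below all 3 controls, and all 3 at 14 d were above them. The mean went from 156 ± 4.51 CPM (SD, n = 3) to 126 ± 12.0 CPM (SD, n = 3) and 331 ± 19.7 CPM (SD, n = 3), a ratio of 2.12 at 14 d.

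TRINITY_DN73470_c0_g3, ranked 13, had the largest gap of all members, with its lowest 14 d library at 6.80 times its highest other library. It stood at 5.42, 5.96 and 5.77 CPM in control leaves, 6.59, 5.80 and 6.23 CPM at 7 d, and 44.9, 51.1 and 44.8 CPM at 14 d. The control and 7 d libraries overlapped and the 3 libraries at 14 d were alike. Its mean at 14 d was 46.9 ± 3.58 CPM (SD, n = 3), 8.21 times the control mean of 5.72 ± 0.276 CPM (SD, n = 3). It had 2 isoforms, and their mix did not pass the test at 7 d (edgeR isoform-use test adjusted p = 0.901).

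The largest mean ratios belonged to genes whose 3 libraries at 14 d were unlike. The gene ranked 16 was at 2.07, 1.44 and 2.89 CPM in control leaves, 4.05, 2.79 and 2.73 CPM at 7 d, and 36.6, 51.1 and 8.31 CPM at 14 d. Its ratio of 15.01 rests on 14 d replicates 1 and 2. The gene ranked 4 was at 33.7, 4.52 and 4.08 CPM in control leaves, 14.7, 23.0 and 13.6 CPM at 7 d, and 244, 250.3 and 71.6 CPM at 14 d. Here control replicate 1 was above the other controls and above all 7 d libraries, and 14 d replicate 3 was again the lowest of its group. The mean at 14 d was 188 ± 101 CPM (SD, n = 3), 13.4 times the control mean of 14.1 ± 17.0 CPM (SD, n = 3).

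The gene ranked 7 showed the opposite order within 14 d. Its level was 12.2, 18.0 and 19.6 CPM in control leaves, 17.7, 18.6 and 15.5 CPM at 7 d, and 83.5, 68.4 and 119.8 CPM at 14 d. Replicate 3 was thus the highest of its group, and the mean of 90.6 ± 26.4 CPM (SD, n = 3) was 5.46 times the control mean.

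**Figure D2:**
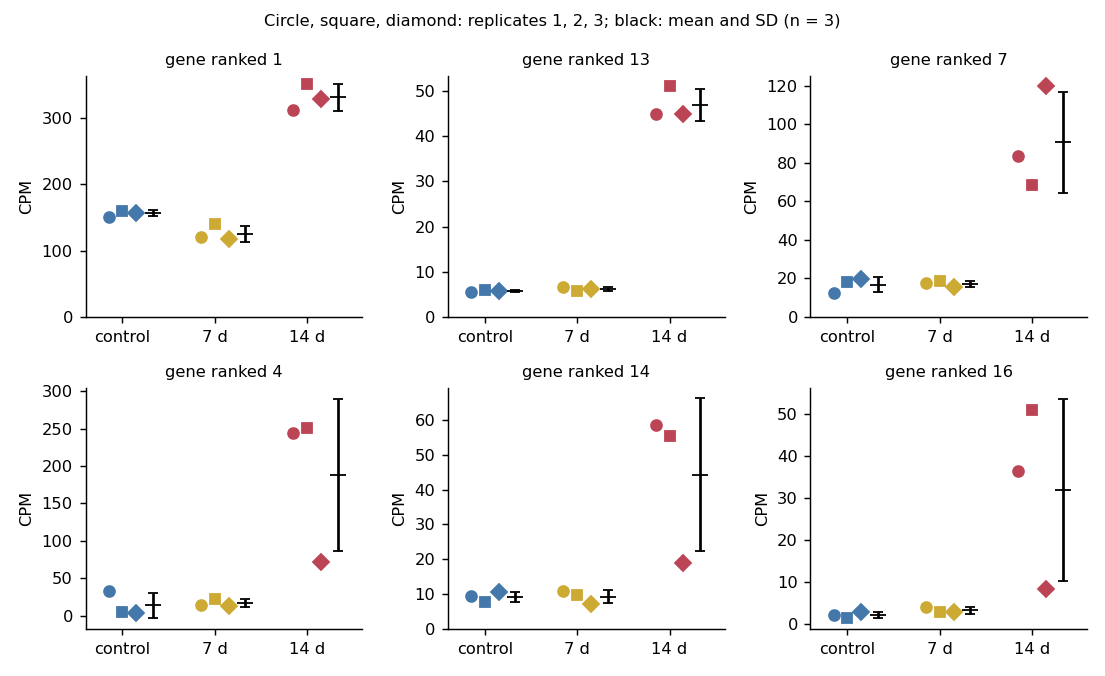
CPM of 6 of the 47 genes in each library, by group, on linear axes that differ between panels, with the mean and SD of each group in black (n = 3). In the genes ranked 1, 13 and 7 the 14 d libraries lie together or have replicate 3 highest, and in the genes ranked 4, 14 and 16 replicate 3, at 71.6, 18.9 and 8.31 CPM, is far below replicates 1 and 2.

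Over the 47 members, 14 d replicate 3 ranged from 0.190 to 1.58 times the mean of replicates 1 and 2, with a median of 0.995. It was the lowest 14 d library in 17 members and the highest in 16, whereas replicate 1 was the lowest in 23 and replicate 2 the highest in 24. In 6 members, ranked 4, 14, 16, 33, 38 and 41, replicate 3 was under 0.6 of the mean of the other replicates, between 0.190 and 0.555. These 6 had a median ratio to control of 4.63 over the 3 libraries and of 2.48 in replicate 3 alone. The other 41 members had medians of 3.09 and 2.89. The limit of 0.6 was set after the values were seen, and the 6 genes are a description. The condition on the lowest 14 d library gives replicate 3 a say in which genes qualify: without that library the rule took 140 genes, which included all 47.

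**Figure D3:**
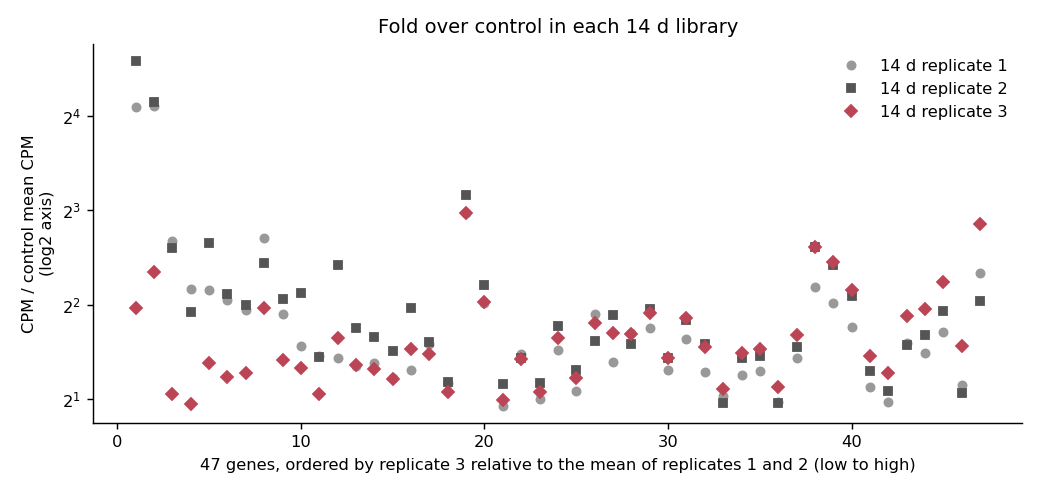
Fold over the control mean in each of the 3 libraries at 14 d, for the 47 genes ordered by replicate 3 relative to the mean of replicates 1 and 2, on a log2 axis. At the left, 6 genes have replicate 3 far below the other libraries, and for most genes the 3 libraries lie close together, with a median of 0.995 for replicate 3 relative to the others.

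How the sum of a gene is divided among its isoforms was not a condition of the rule. It was measured in the same libraries, and the rule held the 7 d sum near control, so the isoform tests below describe the members. The members comprised 129 isoforms, of which 4 had no count in any library. A single isoform was assembled for 12 members (25.5%), beside 46.8% of all tested genes, and the median was 2 isoforms in both. In 31 members at least 2 isoforms passed the filter on low counts, and the highest number was 7. The other 16 could not be tested for isoform use.

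The rule held the mean summed level of the members at 7 d within 1.5-fold of control. Of the 31 members, 11 (35.5%) differed in isoform use between 7 d and control leaves. This was by edgeR's isoform-use test with Benjamini-Hochberg adjustment over all genes tested. The background was 15.4% of 18721 genes. An unadjusted p under 0.05 was reached by 13 of the 31. Among genes with a control mean of at least 5 CPM and a 7 d mean within 1.5-fold of control, 15.1% of 9609 were called, and of the members at that level 10 of 20. The difference between the members' share and the background was not tested. The 11 called members were those ranked 1, 2, 3, 5, 6, 8, 15, 17, 18, 22 and 34. Of these, the sums of the genes ranked 1 and 2 were also called lower at 7 d, and that of the gene ranked 15 higher. None of the 11 is among the 6 members that were low in 14 d replicate 3, of which the gene ranked 16 could not be tested. Without those 6 the count was 11 of 26 (42.3%). That limit was set after the values were seen, and no background with the same exclusion was computed. Testing the isoforms of a gene separately and combining them by Simes' method called 7 of the 31 (22.6%), beside a background of 5.84%. Isoforms were filtered on all 9 libraries, so those of members could enter these tests through 14 d counts, which the rule made high. Isoform 8 of the called gene ranked 18 was at 0.0713, 0.144 and 0 CPM in controls. It was at 1.23, 1.15 and 0.684 CPM at 7 d and 0.881, 1.05 and 0.802 CPM at 14 d. The backgrounds were not matched on 14 d counts, so the members' shares are a description.

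In the gene ranked 1, isoforms changed in opposite directions at 7 d. Its isoform 3 held 136, 139 and 137 CPM in the 3 controls, 81.6, 91.3 and 83.8 CPM at 7 d, and 167, 174 and 154 CPM at 14 d. It fell at 7 d with a log2 change of -0.69 (adjusted p = 0.00137, edgeR quasi-likelihood fit). Its isoform 5 was at 4.28, 6.10 and 6.76 CPM in controls, 14.3, 14.8 and 11.5 CPM at 7 d, and 50.7, 64.2 and 62.7 CPM at 14 d. The other minor isoforms, 7 and 9, followed the same course. At 7 d isoforms 5, 7 and 9 rose, with log2 changes of 1.24, 0.98 and 1.248 (edgeR quasi-likelihood adjusted p = 0.00163, 0.00299 and 0.0244). Isoform 3 made up 88.1 ± 1.44% of the gene in control leaves (SD, n = 3), 68.3 ± 2.87% at 7 d (SD, n = 3) and 50.01 ± 3.47% at 14 d (SD, n = 3). The change in isoform use at 7 d was called with an edgeR isoform-use adjusted p = 9.23e-09. Isoforms 5, 7 and 9, already higher at 7 d, accounted for 84.1% of the gain in CPM of this gene from control to 14 d. Over all members, isoforms called higher at 7 d accounted for 17.3% of the summed gain. Much of this came from the gene ranked 1, whose isoforms 5, 7 and 9 gained 53.5, 67.9 and 25.5 CPM. The share is thus no common trait of the members.

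The gene ranked 6 held the 2 isoforms with the largest falls in mean CPM from control to 14 d among the isoforms of the members. TRINITY_DN7395_c0_g1_i9 was at 4.28, 11.7 and 5.07 CPM in control leaves, 2.53, 0.859 and 0.911 CPM at 7 d, and 2.13, 1.94 and 1.97 CPM at 14 d. All 6 salt libraries were below all 3 controls, and at 7 d the log2 change was -2.27 (edgeR quasi-likelihood adjusted p = 0.0102). TRINITY_DN7395_c0_g1_i18 was at 11.5, 10.1 and 9.36 CPM in control leaves, 6.08, 6.30 and 3.49 CPM at 7 d, and 6.02, 6.51 and 5.76 CPM at 14 d. It also fell at 7 d, with a log2 change of -0.97 (adjusted p = 0.0156, edgeR quasi-likelihood fit). Isoform 16 of the same gene rose at 7 d, with a log2 change of 0.87 (adjusted p = 0.0113 in edgeR's quasi-likelihood fit). Its share went from 29.9 ± 4.82% of the gene in controls (SD, n = 3) to 59.9 ± 7.98% at 7 d (SD, n = 3) and 69.6 ± 6.54% at 14 d (SD, n = 3). Isoform use of this gene was called at 7 d with an edgeR isoform-use adjusted p = 0.000207.

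In the genes ranked 3, 22, 17, 8 and 15 isoform use passed the test at 7 d and missed it at 14 d. The edgeR isoform-use adjusted p at 14 d was 0.207, 0.709, 0.516, 0.240 and 0.159, in that order. A difference between the times was not tested. Isoform 20 of the gene ranked 3 was at 22.3, 25.8 and 13.7 CPM in controls, 1.59, 3.01 and 6.00 CPM at 7 d, and 34.5, 57.1 and 63.7 CPM at 14 d. It fell at 7 d with a log2 change of -2.56 (adjusted p = 0.00289, edgeR quasi-likelihood fit), while isoform 13 rose by 0.95 (edgeR quasi-likelihood adjusted p = 0.00318). At 14 d isoform 20 was above control by a log2 change of 1.26, which was not called (edgeR quasi-likelihood adjusted p = 0.0638). The share of isoform 20 in its gene was 20.1 ± 6.46% in controls, 3.39 ± 2.02% at 7 d and 22.8 ± 5.02% at 14 d (SD, n = 3 each). The sum of this gene was 90.9, 112 and 108 CPM in controls and 93.4, 107 and 107 CPM at 7 d, so the groups overlapped.

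The gene ranked 22 had lower counts. Its isoform 16 was at 3.28, 2.23 and 1.76 CPM in controls, 0.579, 0.716 and 0.608 CPM at 7 d, and 9.47, 9.12 and 8.31 CPM at 14 d. It fell at 7 d with a log2 change of -1.93 (adjusted p = 0.00186, edgeR quasi-likelihood fit), and isoform 7 rose by 0.91 (edgeR quasi-likelihood adjusted p = 0.0131). In the gene ranked 17 another isoform held the highest share at 7 d. Isoform 2 made up 67.0 ± 5.90% of the gene in controls, 33.7 ± 1.83% at 7 d and 59.2 ± 8.91% at 14 d (SD, n = 3 each), and isoform 7 all of the rest. The gene ranked 34 passed the isoform-use test at both times, and its minor isoform 8 went from 7.72 ± 1.29% in controls to 44.4 ± 7.40% at 7 d and 29.9 ± 4.77% at 14 d (SD, n = 3 each). Its level rose at 7 d from 0.214, 0.287 and 0.422 CPM to 2.75, 1.58 and 1.59 CPM, with a log2 change of 2.64 (adjusted p = 0.00141, edgeR quasi-likelihood fit).

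**Figure D4:**
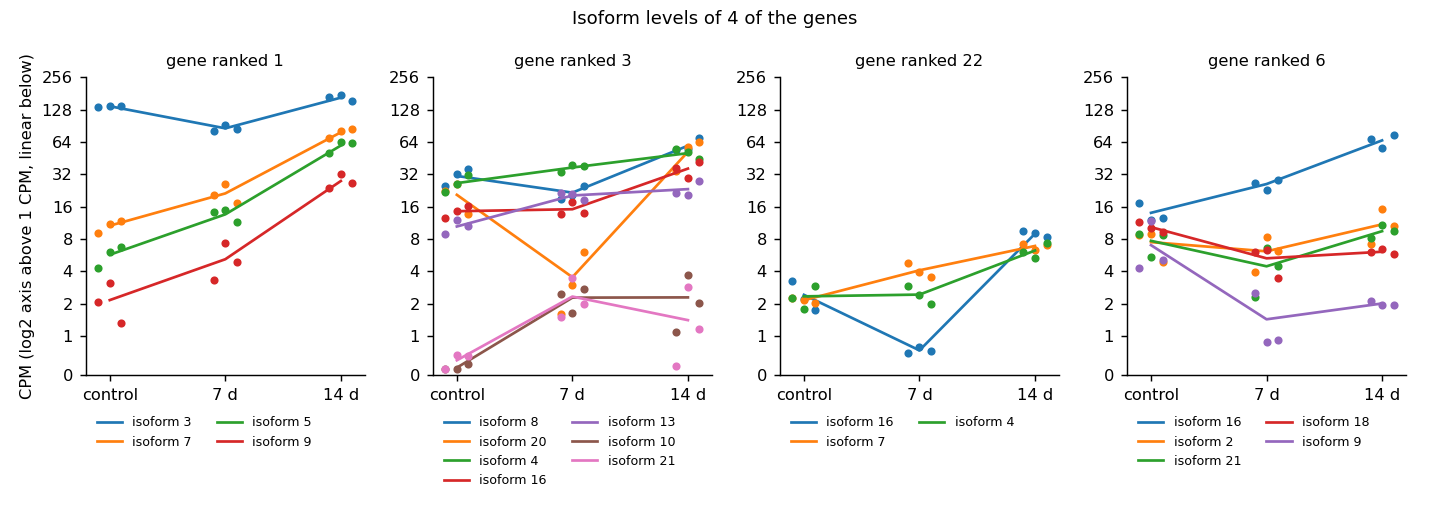
CPM of the isoforms of 4 of the genes in each library (points) with group means (lines), on an axis that is log2 above 1 CPM and linear below; isoforms with means of at most 1 CPM in both control and 14 d leaves are left out. In the gene ranked 1 the minor isoforms rise at both times while isoform 3 dips at 7 d, isoform 20 of the gene ranked 3 and isoform 16 of the gene ranked 22 dip at 7 d and are above control at 14 d, and in the gene ranked 6 isoforms 9 and 18 are below all controls in every salt library.

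Tested singly, 114 isoforms of the members passed the filter. Some passed through their 14 d counts, where the rule made the members high, and had few counts to be called by at 7 d. Isoform 45 of the gene ranked 9 had means of 0.0945 CPM in controls, 0.122 CPM at 7 d and 2.01 CPM at 14 d. The 7 d shares below are thus a description. At 7 d 14 of them (12.3%) were called higher than in control leaves, beside a background of 8.96%, and 9 (7.89%) lower, beside 10.6%. These shares are near the background. The 14 higher isoforms belonged to 10 members and the 9 lower ones to 8, and 6 members held both. The isoforms called higher at 14 d than in control leaves numbered 82 of 114, beside a background of 5.63%, and those called lower 3, beside 5.58%, which follows from the choice of genes with a higher sum. Of the 82, 12 were already called higher at 7 d, while 3 had been called lower at 7 d.

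Isoform use at 14 d against control was called in 8 of the 31 members (25.8%), beside a background of 8.70%. This is the contrast of the rule, and a gain in some isoforms raises the sum, so nothing is read from it. Of these 8, 6 were also among the 11 called at 7 d. The same isoform had the highest mean in all 3 groups in 27 of the 31 members. The isoform with the largest gain accounted for a median of 67.8% of the gain of its gene at 14 d, with a range of 25.8 to 111%, where a value over 100% means that other isoforms lost. Isoforms of a gene share sequence, and how reads were divided among them was an estimate, so these values are less certain than the sums.

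The assembler groups genes that share sequence into components, and the 47 members came from 45 components. The genes ranked 8 and 15 shared a component, as did those ranked 12 and 36. The gene ranked 8 was at 42.3, 42.7 and 39.2 CPM in controls and at 84.3, 80.2 and 89.0 CPM at 14 d, and the gene ranked 15 at 11.3, 13.4 and 15.98 CPM in controls and at 40.7, 41.1 and 37.7 CPM at 14 d. Both were among the members with a change in isoform use at 7 d. Members of a component can share reads and are not independent.

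The components held 77 further genes that are not members, of which 45 were tested. At 14 d 6 of the 45 (13.3%) were called higher than in control leaves, beside the 7.97% of all tested genes, and 2 (4.44%) lower, beside 8.40%. Their median log2 change was -0.08 against control and 0.00 against 7 d. Of the 45, 37 were not called at 14 d in either direction. Between the salt times, 5 of the 45 (11.1%) were higher at 14 d than at 7 d, beside 6.89%, and 1 (2.22%) was lower, beside 4.37%. At 7 d against control, 7 (15.6%) were higher, beside 11.3%, and 9 (20.0%) lower, beside 13.9%. The differences between these shares and the background were not tested.

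The 6 genes called higher differed among themselves. In the component of the gene ranked 6, a further gene was at 0.214, 0.0718 and 0.0704 CPM in controls, 0.0724, 0.215 and 0.228 CPM at 7 d and 1.248, 0.748 and 1.60 CPM at 14 d. All 3 libraries at 14 d were above the other 6, by a gap of 3.28 times, and its level was below the floor of the rule. It rose at 14 d with a log2 change of 3.18 ± 0.56 (SE; adjusted p = 0.00174, edgeR quasi-likelihood fit). In the component of the gene ranked 32, a further gene rose at 14 d with a log2 change of 1.20 ± 0.27 (SE; adjusted p = 0.00765, edgeR quasi-likelihood fit), and its highest 7 d library was close to its lowest 14 d library, with a gap of 1.04. In the component of the gene ranked 1, a further gene was at 3.49, 3.09 and 1.13 CPM in controls, 1.81, 3.58 and 2.05 CPM at 7 d and 6.97, 7.03 and 6.05 CPM at 14 d, which left it just outside the rule with a gap of 1.69. It rose at 14 d by a log2 change of 1.31 ± 0.34 (SE; edgeR quasi-likelihood adjusted p = 0.0176). In the component of the gene ranked 23, a further gene fell at 7 d by a log2 change of -1.03 ± 0.28 (SE; edgeR quasi-likelihood adjusted p = 0.0173). At 14 d it was 0.95 ± 0.28 above control (SE; edgeR quasi-likelihood adjusted p = 0.0327). Its controls were at 75.9, 39.2 and 28.9 CPM and its lowest 14 d library at 79.9 CPM, a gap of 1.05. In the components of the genes ranked 20 and 31, a further gene each rose at 7 d and was also higher at 14 d, by 0.81 and 0.64 in the former and 1.15 and 1.14 in the latter at 7 d and 14 d (edgeR quasi-likelihood adjusted p from 0.000843 to 0.00653). Whether shared reads play a part in these values was not tested.

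**Figure D5:**
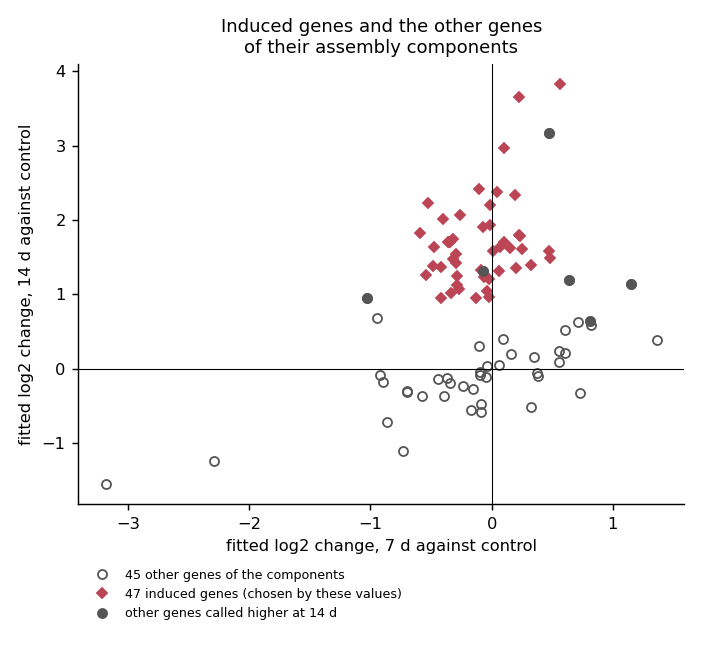
Fitted log2 change against control at 7 d (horizontal) and at 14 d (vertical) of the 47 induced genes, which were chosen by these values, and of the 45 other tested genes of their components. The 6 other genes called higher at 14 d are filled, and most of the rest lie around 0 at 14 d, with a median of -0.08.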

How the data were processed

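The authors deposited 1 table of estimated counts per assembled isoform for 9 leaf libraries, as whole numbers with different totals. Per the submitters' processing notes the tools included Salmon, HISAT2 and FastQC, with no version or role. The identifiers look like those of Trinity, an assembler. Assembly and strand settings were not given in the sources used here. Isoforms were summed to genes by identifier, and CPM used column totals of 13166552 to 14201943.

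Counts were tested in R 4.3.3 with edgeR 4.0.16 (expression filter with minimum count 10 and minimum total 15, TMM scaling, 1 quasi-likelihood model of the 3 group means over all 9 libraries, Benjamini-Hochberg adjusted p below 0.05). Isoform use was tested with edgeR's diffSpliceDGE at gene level, over genes with 2 or more filtered isoforms. The code was tested on simulated data. Each p-value of a gene or a single isoform sets a difference between group means against the spread between seedlings within groups. This spread is estimated over the 3 groups together. The isoform-use p-value sets the changes of isoforms against that of their gene and pools the spread over the isoforms. It treats isoforms as independent, although they come from the same seedlings and share reads. For isoforms the spread also holds the uncertainty of dividing reads among them. Alternatives used DESeq2 1.42.0, limma 3.58.1, other scalings, filters and limits of the rule, the replicate block and each library left out in turn. Figures used Python 3.11.15 and matplotlib 3.10.9.

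The members and lists were chosen with earlier results of these data known. Identifiers printed were those of the member with the highest 14 d mean, of the member with the largest gap among those with counts in every control, and of the 2 member isoforms with the largest fall in CPM from control to 14 d. Other genes are given by rank. The test of single isoforms, the background of genes with a control mean of at least 5 CPM and a 7 d mean near control, the rule without a condition on 7 d and the count without the 6 members low in 14 d replicate 3 were added after the data were examined.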

Additional observations from a re-analysis of the deposited data

Results flagged for a closer look

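Among the 45 tested genes that share an assembly component with a member but are not members, 6 differed between 14 d and 7 d of salt by the direct test between these times (edgeR quasi-likelihood fit, 5 higher and 1 lower at 14 d). This is 13.3% of the 45, beside 11.3% of all tested genes, so the share is near the background and is no result about these genes as a group.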

How the results depend on the processing

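The count of members moved with the limits of the rule. It was 88 with a floor of 2 CPM, 71 with a gap of 1.5 times, 28 with a gap of 2 times, 76 for isoforms taken singly, and 97 with no condition on 7 d. With TMM-scaled CPM it was 37, all of them among the 47. With each library left out it was 48 to 140, the highest without 14 d replicate 3. All 47 members were among them when a 14 d library was left out, and 42 to 46 when a control or 7 d library was. Isoform use at 7 d was called in 7 members by Simes' method, in 9 by limma-voom, and in 10 to 12 with each library left out. Isoform use at 14 d was called in 4 members by Simes' method, in 5 by limma-voom, and in 5 to 9 with each library left out, the lowest without 14 d replicate 1. The 3 members called at 7 d against control by edgeR were 5 with genes of a mean of 5 CPM or more, 0 with no filter, where 9 had an unadjusted p under 0.05, and 0 to 4 with each library left out. It was 0 without 7 d replicate 3, with 6 at an unadjusted p under 0.05, and 1 without control replicate 2 or 3. DESeq2 called 2 and limma-voom 3. The counts over all genes were 10237, 7045 and 15765 for 14 d against control, 14 d against 7 d and 7 d against control. They were 5526, 4052 and 8044 over genes with a mean of 5 CPM or more, where fewer genes are tested. With each library left out, 14 d against 7 d ranged from 3358 to 9429. It was 3358 without 7 d replicate 3, 4041 without 7 d replicate 1, 3381 without 14 d replicate 2 and 4346 without 14 d replicate 1. The higher genes of the components numbered 5 to 8 with each library left out. The cause of these changes was not tested where none is given.

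The deviations of libraries from their group means were correlated between groups. Correlations ran from -0.127 to 0.169 for the same replicate number and from -0.2225 to 0.2935 for different numbers. Not every library correlated best with its own number. With 3 libraries per group these values cannot show whether the numbers pair the seedlings, and the main fit used no replicate block. With the replicate block the calls were 9757, 6843 and 15164 over all genes, and isoform use at 7 d was called in 11 members. Low counts limit the isoforms more than the sums.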
